A study of Danio rerio with 10 samples.

Results

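The comparison described here set *islet2a* morphants directly against *islet2a* mutants at 48 hpf. Its members were the 3 arrays titled as morphants and the 3 titled as mutants, 6 of the 10 arrays of the series, and all 75212 probe sets of the array were compared. The comparison asked how far embryos in which *islet2a* was perturbed by an injected oligonucleotide or by a mutation differed in their transcripts. Morphants were wildtype embryos injected at the one-cell stage with a translation-blocking morpholino (MO), an antisense oligonucleotide that covers the start codon of the *islet2a* mRNA. Mutants were uninjected homozygotes of a TALEN-made allele, a short deletion in exon 2 that shifts the reading frame and ends in a premature stop codon. The other 4 arrays held wildtype embryos, 2 of them uninjected controls of the injection and 2 homozygous wildtype siblings of the mutants. The sibling arrays carry mock control in their titles, but their source and description fields name sibling wildtype embryos, and these fields set the group. No array held embryos injected with a control MO, so injection itself and the effect of the *islet2a* MO cannot be told apart here. Each array measured RNA of 1 pool of whole embryos, all raised to 48 hpf (2 dpf) at the same temperature. The labels do not say whether the pools came from separate clutches, so p-values measure the spread between these pools only.

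Islet proteins are LIM-homeodomain transcription factors that act in postmitotic motor neurons, sensory neurons, retinal ganglion cells and endocrine cells. In zebrafish spinal cord, *islet1* marks all primary motor neurons early, and *islet2a* is kept in the caudal primary motor neuron (CaP). A translation-blocking MO leaves the mRNA itself in place and lasts for the first days of development, whereas a frameshift mutation is present in every cell from the start, and its mRNA can be a substrate of nonsense-mediated decay. MO injection in zebrafish is known for side effects that include activation of p53 and of innate immune genes.

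The deposited values were log2 signals, so a difference of 1 is a 2-fold change. The lowest signal was 1.39, with array medians of 4.92 to 4.96. A group mean was fitted for morphants, for mutants and for all 4 wildtype arrays with limma, with Benjamini-Hochberg adjusted p-values over the whole array. Differential expression (DE) required an adjusted p below 0.05 and at least a 2-fold difference. "Higher" and "lower" below mean morphants relative to mutants, and "rose", "fell" or "passed" mean an adjusted p below 0.05 whatever the fold. Across all probe sets the correlation between arrays was 0.988 to 0.992 among morphants, 0.99 among mutants and 0.972 to 0.981 between a morphant and a mutant array. The median standard deviation between arrays was 0.131 in morphants and 0.135 in mutants.

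Of all probe sets, 1.64% were DE and higher in morphants (1230) and 0.883% were DE and lower (664). For gene lists, each gene was represented by its brightest probe set with a single gene symbol, which gave 19260 genes. By this count 1.83% of genes were DE and higher (353) and 1.15% were DE and lower (221), while 13.5% rose and 9.63% fell at any fold. The counts on gene lists below are to be read against these shares. The median difference over all genes was -0.0012, and 49.8% of genes had a positive difference. All 574 DE genes had morphant and mutant values that did not overlap. The DE thresholds select on these same values, so this is not a separate result. Values also did not overlap for 60 of 92 respiratory chain genes and 9 of 53 MHC and immune-type receptor genes, with 0 DE on either list. The share of all genes without overlap is not given here, so neither count can be read as high or low. Most of the differences were modest, since 324 of the higher and 197 of the lower DE genes differed by 2- to 4-fold. Another 7 genes were at least 8-fold higher and 1 was at least 8-fold lower. The plain 2-group test of the methods, as run here, gave 748 DE probe sets in place of 1894, and 737 of them were shared. This is a count of probe sets and not the study's own count of genes.

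The wildtype arrays showed which of the 2 kinds of embryo stood apart for each gene. Over all genes, morphants lay above every wildtype array for 16.2% and below every one for 11.9%, and mutants lay above every wildtype array for 7.9% and below for 8.93%. Among the 353 DE genes higher in morphants, 221 had only the morphants outside the wildtype range, 34 had only the mutants outside it, 77 had both and 21 had neither. Among the 221 DE genes lower in morphants, 81 had only the morphants outside, 53 only the mutants, 55 both and 32 neither. In most of the higher genes the morphants, and not the mutants, were outside the wildtype range. These counts use the same arrays as the direct comparison and are a description of where the wildtype values lay.

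Morphants and mutants also came from embryos with different wildtype relatives. Between uninjected and sibling wildtype embryos, 0.0319% of probe sets were DE (24, of which 11 were higher in uninjected embryos), from 2 against 2 arrays. This count ran from 5 to 110 when single arrays were left out, with 110 without sibling wildtype replicate 1 and 5 without uninjected wildtype replicate 2. A test of whether morphants changed from uninjected wildtype by as much as mutants changed from their siblings (the difference of changes) gave 0.594% of probe sets (447, with 361 positive). Of the fits without a single array, the one without uninjected wildtype replicate 1 gave the lowest count (131). The wildtype difference shares no array with the direct difference itself. The joined wildtype arrays did enter the spread on which DE was decided, so the DE set was not chosen independently of them. The wildtype difference had the same sign as the direct difference in 71.5% of the DE probe sets and 54.3% of all probe sets. Pearson's r between the 2 differences was 0.235 across all probe sets and 0.516 across the DE probe sets, which are not independent replicates. The wildtype difference was small for most of them, with a median of 0.12 for the higher and -0.20 for the lower DE genes, and 8 of the 574 DE genes had a wildtype difference of the same sign and at least 2-fold. In these fits 5 probe sets were DE in both comparisons, 1 of them with a gene symbol (*tubb4bl*). Joining the wildtypes makes probe sets with a large wildtype difference harder to call in the direct comparison. The values given here for the DE set depend on this, so they cannot show how common such probe sets are.

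**Figure D1:**
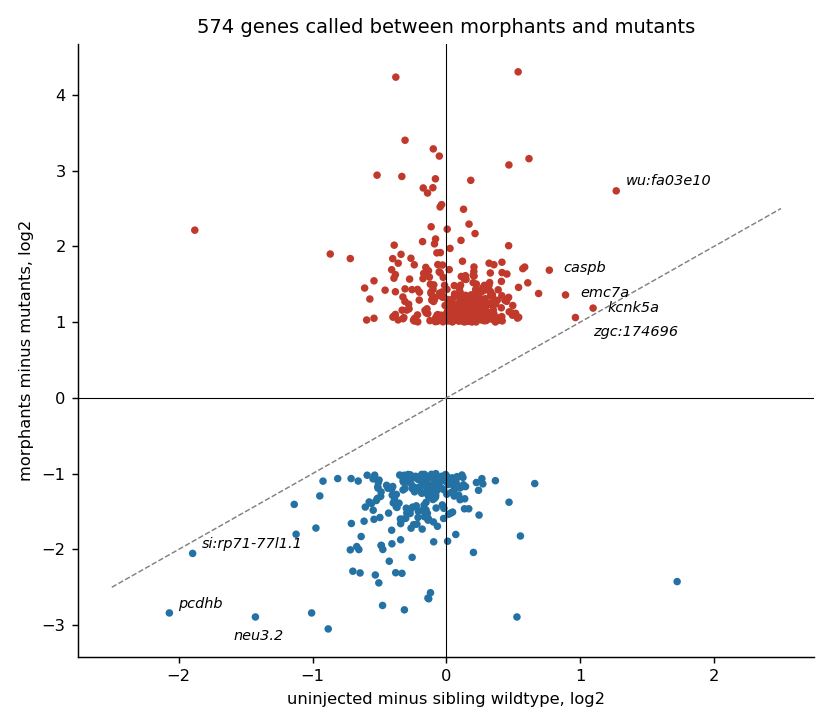
Log2 difference between morphants and mutants (vertical axis) against the log2 difference between uninjected and sibling wildtype embryos (horizontal axis) for the 574 DE genes, 1 point per gene, red for higher and blue for lower in morphants. In the titles "called" means DE. The dashed line marks equal differences, and most points lie near 0 on the horizontal axis, while *pcdhb*, *si:rp71-77l1.1* and *wu:fa03e10* lie well to one side.

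The targeted gene *islet2a* (*isl2a*) was higher in morphants. Its log2 signals were 9.79, 9.96 and 9.91 in morphants, 8.95, 9.12 and 9.13 in mutants, and 8.51 to 8.61 in the 4 wildtype arrays. Morphants lay above mutants and mutants above wildtype, without overlap. The difference was 0.82 (SE 0.0881, a 1.77-fold higher signal, adjusted p = 0.000601), below the 2-fold threshold of DE. Neither a translation block nor a frameshift has to lower the mRNA, so this signal does not check the labels of the arrays.

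The other islet genes moved the other way or did not pass. *islet1* (*isl1a*), the paralog that all primary motor neurons express first, had signals of 8.61, 8.63 and 8.94 in morphants and 9.26, 9.64 and 9.67 in mutants. It was lower by 0.80 (SE 0.145, adjusted p = 0.00666), with the wildtype arrays at 9.04 to 9.39 in between. *islet2b* (*isl2b*), which marks sensory neurons and retinal ganglion cells, read 6.37, 6.60 and 6.63 in morphants and 6.85, 7.47 and 7.37 in mutants, a difference of -0.69 (SE 0.170, adjusted p = 0.024). Its adjusted p was 0.0537 to 0.0905 when morphant replicate 1 or 2 or mutant replicate 2 or 3 was left out. The fourth family member, *isl1b*, had a difference of 0.01 (SE 0.148, adjusted p = 0.967). For each of *isl2a*, *isl1a* and *isl2b* the 3 morphant and 3 mutant values did not overlap, and an exact two-sided permutation test gave 0.1, the smallest p that 3 against 3 arrays allow. The CaP axon receptors *nrp1a* and *plxna3* had differences of -0.22 (adjusted p = 0.204) and -0.38 (adjusted p = 0.0618). The qPCR reference gene *eef1a1a* had a difference of -0.31 (adjusted p = 0.29). The exact permutation test also gave 0.1 for *plxna3* and *eef1a1a*, and 0.2 for *nrp1a*. A value of 0.1 therefore does not set the 3 islet genes apart from genes that did not pass.

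**Figure D2:**
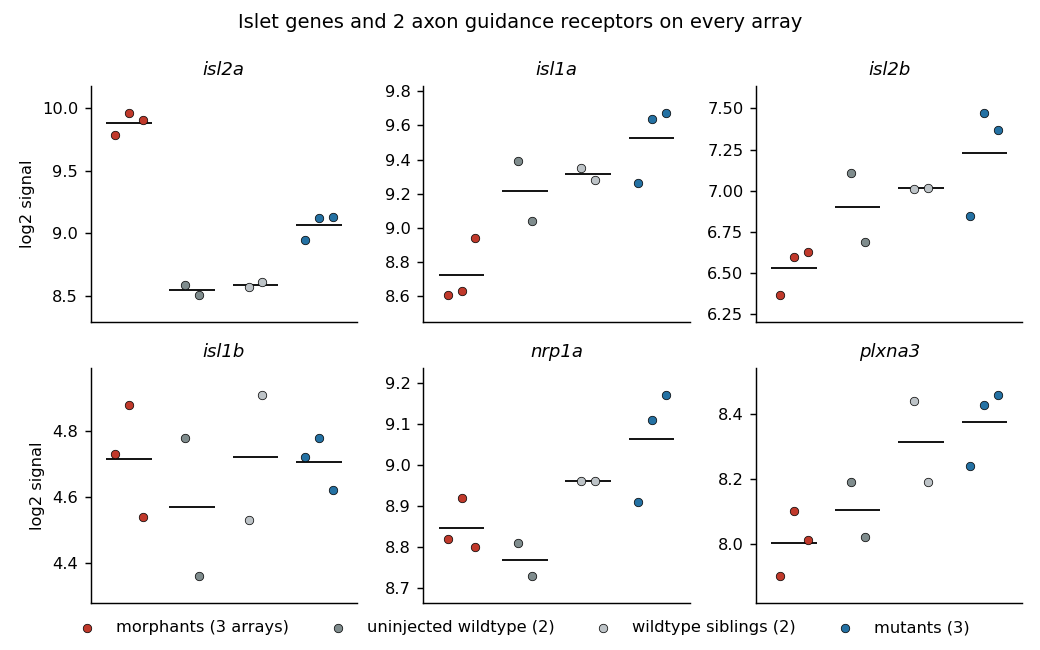
Log2 signal (vertical axis) of 4 islet genes and of *nrp1a* and *plxna3* on every array, 1 point per array and a line at each group mean. *isl2a* ran from 8.95 to 9.13 in mutants and from 9.79 to 9.96 in morphants, and *isl1a* and *isl2b* were lower in morphants, while *isl1b* overlapped in all groups.

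Aminoacyl-tRNA synthetases, which load amino acids onto their tRNAs, rose in 16 of 19 members and fell in 0, with a list median of 0.84, and 6 were DE (31.6%). The isoleucyl-tRNA synthetase *iars1* read 9.74, 9.85 and 9.89 in morphants and 8.41, 8.12 and 8.17 in mutants, and differed by 1.59 (SE 0.131, adjusted p = 0.000167). *yars1*, *rars1* and *qars1* differed by 1.17, 1.15 and 1.15, and *tars1* and *lars1b* by 1.08 and 1.01. Morphants lay above every wildtype array for 17 of the 19 synthetases (against 16.2% of all genes), and mutants lay below every wildtype array for 1 (against 8.93%).

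Synthetase genes are known targets of ATF4, the transcription factor of the integrated stress response. Of 30 genes on the list of that response, 18 rose, 1 fell and 7 were DE, all higher, with a median of 0.38. *atf5b*, a bZIP factor of the same family, read 9.75, 10.09 and 9.65 in morphants and 6.99, 7.08 and 7.10 in mutants, a 6.84-fold difference (2.77, SE 0.156, adjusted p = 2.11e-05). *ddit3*, which encodes the stress factor CHOP, read 8.19, 8.13 and 8.25 in morphants and 5.93, 6.45 and 6.09 in mutants (2.03, SE 0.166, adjusted p = 0.000167). *atf3* and *cebpg* differed by 1.3 and 1.22. *atf4a*, *atf4b* and *atf5a* differed by 1.03, 1.02 and 1.04, close to the 2-fold threshold, and 4 of the 30 genes were DE after quantile normalization was repeated. For *atf5b* and *ddit3* the mutants overlapped the wildtype arrays, and the morphants were apart from all 7 other arrays. The cystine transporter *slc7a11* was the 1 member that fell (-0.48).

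Of 30 genes of the unfolded protein response of the endoplasmic reticulum, 0 were DE, 1 rose (*xbp1*, by 0.36) and 6 fell, among them the calreticulins *calr* (-0.84), *calr3a* (-0.82) and *calr3b* (-0.63). The chaperone *hspa5* (BiP) had a difference of 0.25 (adjusted p = 0.404). Of 54 proteasome genes, 3 rose (5.56%, against 13.5% of all genes), 1 fell (1.85%, against 9.63%) and 0 were DE. Of 67 cytosolic ribosomal proteins, 1 rose (1.49%) and 2 fell (2.99%), also below the shares of all genes. The 1 ribosomal member that rose was *rps27l*, a target of p53.

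Of 33 genes of the p53 pathway, 15 rose, 4 fell and 6 were DE, all higher (18.2%), with a median of 0.36. *rps27l* read 9.16, 9.19 and 9.06 in morphants and 6.77, 6.75 and 6.43 in mutants, 5.62-fold apart (2.49, SE 0.120, adjusted p = 7.79e-06). The cell cycle inhibitor *cdkn1a* (p21) read 7.29, 7.31 and 7.18 in morphants and 5.43, 5.22 and 5.39 in mutants (1.91, SE 0.105, adjusted p = 1.96e-05). *mdm2*, the ubiquitin ligase that degrades p53, read 9.44, 9.79 and 9.51 against 7.85, 7.84 and 7.77 (1.76, SE 0.170, adjusted p = 0.000358). In all 3 genes the mutants overlapped the wildtype values and the morphants were above every other array. *gadd45ab* (1.33), *phlda3* (1.1) and the pro-apoptotic BH3 gene *bbc3* (1.07) were the other DE members. The 4 that fell were *tp53inp2a* (-0.85), *ccng2* (-0.62), *mdm4* (-0.47) and *tp53inp1* (-0.40). Among caspase and Bcl2 genes, 7 of 33 rose (21.2%, against 13.5% of all genes) and 0 fell (against 9.63%). The initiator caspase *casp8* (1.33) and the inflammatory caspase *caspb* (1.69) were DE. The 2-group test of the methods counted 6 DE genes each on the p53, synthetase and ATF4 lists.

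**Figure D3:**
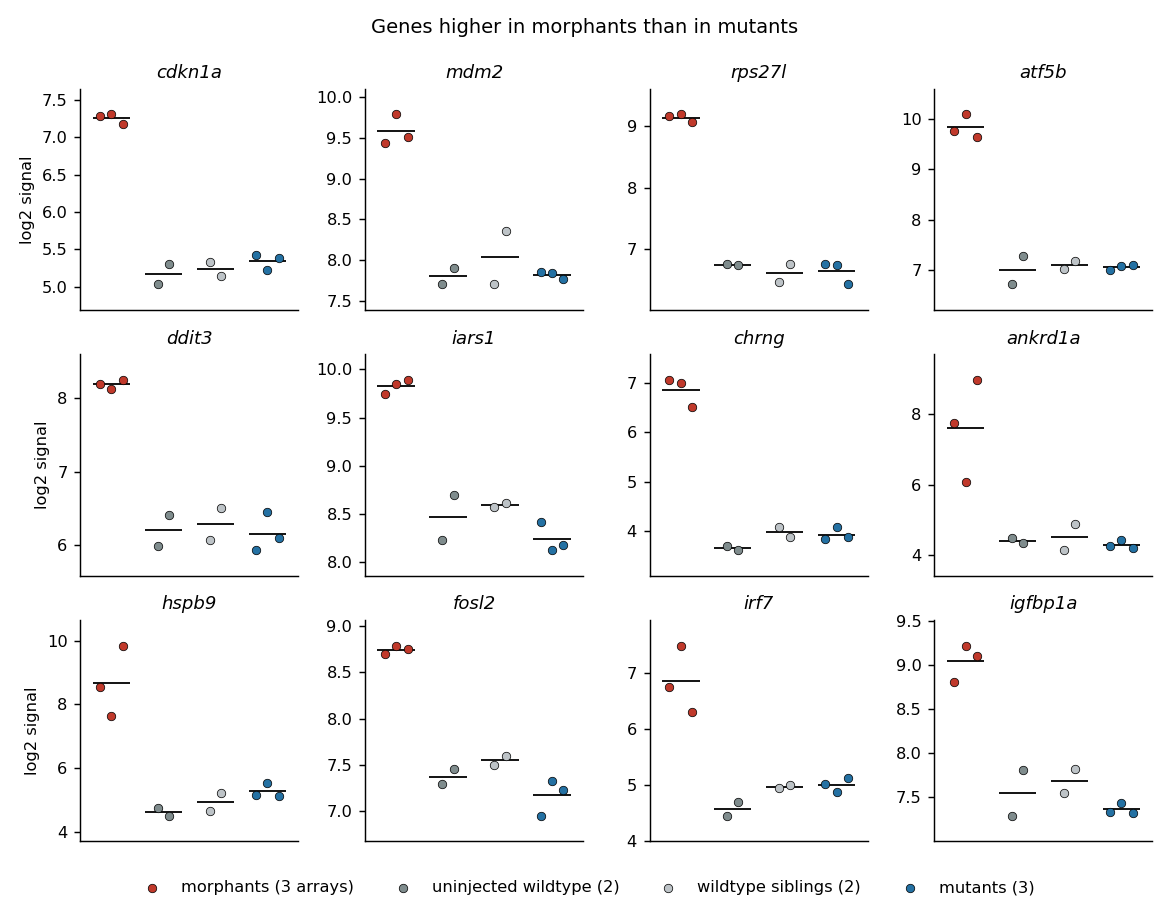
Log2 signal (vertical axis) of 12 genes higher in morphants on every array, 1 point per array and a line at each group mean. In every panel the 3 morphant points lie above all mutant and wildtype points, closely spaced for *cdkn1a* and *ddit3* and widely for *ankrd1a* (6.08 to 8.96) and *hspb9* (7.65 to 9.84).

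Of 77 Hsp70, Hsp90, DnaJ and folding genes, 21 rose, 7 fell and 4 were DE, all higher, with a median of 0.20. These were the collagen chaperone *serpinh1b* (1.97), the myosin chaperone *unc45b* (1.26), the co-chaperone *bag3* (1.22) and the inducible *hspa1b* (1.02). *serpinh1b* read 9.87, 9.67 and 9.76 in morphants and 7.85, 7.57 and 7.97 in mutants, but 7.45 to 9.36 in the wildtype arrays, and its adjusted p was above 0.05 without morphant replicate 1 or mutant replicate 2 (up to 0.0635). Of 12 small heat shock genes, *hspb9* was 10.6-fold higher (3.4, SE 0.436, adjusted p = 0.00136), with 8.53, 7.65 and 9.84 in morphants and 5.12 to 5.54 in mutants, while a dimmer probe set of *hspb9* differed by 0.52 (adjusted p = 0.0212). *hspb1* (1.38) and *hspb8* (0.90) also rose, and the lens chaperone *cryaa* fell with the other crystallins. The uninjected wildtype arrays had *hspb1* at 10.28 and 10.60, overlapping the morphants, which reached 10.92.

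Of 34 immediate early genes, 12 rose, 2 fell and 6 were DE, all higher. The matricellular gene *ccn1l1* read 8.20, 7.30 and 9.45 in morphants and 5.64 to 5.94 in mutants (2.52, adjusted p = 0.004). The AP-1 subunits *fosl1a*, *fosl2* and *junbb* differed by 1.63, 1.57 and 1.54, *atf3* by 1.3 and *ccn2a* by 1.09. *fosl2* was the tightest, with 8.70, 8.79 and 8.75 against 6.95, 7.33 and 7.23. *fosl1a* rested more on single arrays, with 7.25, 7.57 and 8.86 against 6.27, 6.75 and 5.79, and its adjusted p was 0.0722 without mutant replicate 3. The 2-group test of the methods counted 1 DE gene on this list.

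Of 56 inflammation genes, 12 rose, 3 fell and 6 were DE and higher: the matrix protease *mmp9* (1.69), the chemokines *ccl34a.4* (1.56) and *cxcl18b* (1.24), the cytokine receptor subunit *il6st* (1.18), the nitric oxide synthase *nos2b* (1.06) and the chemokine scavenger *ackr3b* (1.02). Among 40 interferon and antiviral genes, 4 rose and 1 fell. The 2 DE members were *irf7*, which drives interferon transcription, at 6.75, 7.48 and 6.30 in morphants against 5.02, 4.87 and 5.13 in mutants (1.84, adjusted p = 0.00201), and the exonuclease *isg20* at 9.60, 9.76 and 9.58 against 7.88, 8.02 and 7.77 (1.75, adjusted p = 2.82e-05). The median of the interferon list was -0.0095, and 35 of its 40 genes did not pass. Of these 40 genes, 14 had a mean signal above that of the median probe set. The defining macrophage and neutrophil genes *mpeg1.1* (0.07), *mpx* (0.17) and *lyz* (-0.11) did not pass. All 53 MHC and immune-type receptor genes failed the test at any fold. Only 6 of the 53 had a mean signal above that of the median probe set, so a difference in the others could be missed. Terminal complement genes *c6.2* (1.64) and *c7a* (1.11) were DE among 26 complement genes. *serping1*, the inhibitor of the first complement component, was 4.28-fold higher, with mutants at 5.40, 4.73 and 6.17 below the wildtype arrays at 6.24 to 7.37.

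Hypoxia and metabolic hormone genes included some of the largest single differences. The leptin gene *lepa* read 6.31, 4.5 and 8.13 in morphants and 2.90, 3.19 and 3.27 in mutants (3.19, SE 0.669, adjusted p = 0.0123), so the 3 morphant pools themselves ranged widely. The IGF-binding protein *igfbp1a* was more even, with 8.81, 9.22 and 9.10 against 7.33, 7.44 and 7.32 (1.68, adjusted p = 0.000284). *loxl2a*, a lysyl oxidase, differed by 1.52 on its brightest probe set and by 0.53 (adjusted p = 0.197) on another. Of the 46 hypoxia genes 10 rose (21.7%, against 13.5% of all genes) and 3 fell (6.52%, against 9.63%), and *ndrg1b* (-2.01) was DE in the other direction. The parathyroid hormone gene *pth1a* read 6.59, 5.43 and 7.38 in morphants and 3.81 to 4.04 in mutants (2.55, adjusted p = 0.00267). Morphant replicate 2 was the lowest and replicate 3 the highest for *lepa*, *pth1a*, *ankrd1a*, *hspb9*, *ccn1l1* and *tcap*. Over the 33 higher DE genes with a standard deviation above 0.5 between morphants, replicate 2 was lowest in 22 and replicate 3 highest in 20.

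Of 39 muscle regulatory, stress and repair genes, 21 rose, 3 fell and 10 were DE, all higher (25.6%), with a median of 0.45. The titin-associated ankyrin gene *ankrd1a* was 9.76-fold higher, with 7.75, 6.08 and 8.96 in morphants and 4.27, 4.44 and 4.21 in mutants (adjusted p = 0.00443). *trim55b* (1.66), *trim55a* (1.15) and *trim63a* (1.04), which encode ubiquitin ligases of the sarcomere, and the actin-binding *xirp1* (1.60) and *xirp2a* (1.04) were DE. The chaperones *unc45b* and *bag3* are on this list too. The myogenic factors *myf5* (1.4) and *myod1* (1.01) were DE too, and *myf6* (0.52) and *myog* (0.48) rose. *myf5* read 7.41, 7.40 and 7.14 in morphants, 6.0, 5.91 and 5.83 in mutants and 6.0 to 6.71 in wildtype. Morphants were above every wildtype array for 22 of the 39 genes (against 16.2% of all genes), and mutants below every one for 3 (against 8.93%).

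Structural genes of the same tissue had a median nearer that of all genes. Of 64 sarcomere genes, 12 rose and 4 fell, with a median of 0.09 and 3 DE, the titin cap gene *tcap* (2.7), the parvalbumin *pvalb3* (1.16) and the intermediate filament gene *desma* (1.1). *desma* read 10.58, 10.60 and 10.59 in morphants and 9.55, 9.51 and 9.40 in mutants. The defining fast and slow muscle genes *ckma* (0.00), *actc1b* (0.07), *mylpfa* (0.11), *myhz2* (-0.20) and *smyhc1* (0.39) did not pass. In whole-embryo RNA, a change in the number of cells of a type and a change in RNA per cell cannot be told apart.

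At the neuromuscular junction, 6 of 14 genes rose, 0 fell and 2 were DE. *chrng*, the fetal gamma subunit of the muscle acetylcholine receptor, read 7.06, 6.99 and 6.52 in morphants and 3.84, 4.08 and 3.88 in mutants, 7.58-fold apart (2.92, SE 0.165, adjusted p = 2.11e-05). The kinase *musk*, which organizes receptor clusters, read 6.73, 6.59 and 6.70 against 5.21, 5.50 and 5.25 (1.35, adjusted p = 0.000256). The delta subunit *chrnd* (0.99), the clustering protein *rapsn* (0.75) and *dok7b* (0.53) rose below 2-fold. Morphants were above every wildtype array for 9 of the 14 genes (against 16.2% of all genes), and 0 of the 14 had mutants outside the wildtype range. Of 26 heart genes, 6 rose (23.1%, against 13.5% of all genes), 2 fell (7.69%, against 9.63%) and 0 were DE. The largest rises were those of *gata5* (0.87) and *cmlc1* (0.83).

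The list of motor neuron genes, of the cells with which the study was concerned, held 0 DE members of 23. Of all genes 1.83% were DE and higher and 1.15% DE and lower, so a list this short can hold 0 without standing apart. *isl2a* (0.82) and *nkx6.1* (0.33) rose (8.7%, against 13.5% of all genes), and 6 fell (26.1%, against 9.63%). Those that fell were *stmn2a* (-0.85), *isl1a* (-0.80), *lhx4* (-0.75), *isl2b* (-0.69), *stmn2b* (-0.67) and the acetylcholine-synthesizing *chata* (-0.56). *mnx1* (0.24), *mnx2b* (-0.13), *olig2* (-0.04) and *slc18a3a* (-0.30) did not pass. Of 98 axon guidance genes, 14 rose (14.3%, against 13.5% of all genes) and 13 fell (against 9.63% of all genes). The list median was -0.04. The 2 DE members were the netrin *ntn1a* (1.09) and the ephrin receptor *epha2a* (1.08). Both were higher, a share of 2.04% against 1.83% of all genes. The strongest falls were the semaphorins *sema3h* (-0.91), *sema4gb* (-0.90) and *sema3d* (-0.83) and the slit receptor *robo2* (-0.78). Of 24 islet and LIM genes, 10 fell and 1 rose, with *lhx9* (-1.1) and *lmo1* (-1.06) DE. Among 23 Rohon-Beard and sensory neuron genes, 9 fell and 1 rose. *ngfrb*, a neurotrophin receptor, was the 1 that rose, with 7.94, 7.93 and 8.10 in morphants, 4.79, 3.87 and 5.83 in mutants and 7.07 to 7.78 in wildtype, so mutants lay far below the wildtype arrays and morphants just above them. A second probe set of *ngfrb* had a difference of -0.71 (adjusted p = 0.112) in the opposite direction. *pou4f2*, a retinal ganglion cell and sensory factor, was lower by 1.72, or 3.29-fold.

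Of 80 genes of synapses and neurotransmission, 32 fell and 2 rose, with a median of -0.44, although 2 were DE, the synaptotagmin *syt2a* (-1.03) and the GABA receptor subunit *gabra2b* (-1.01). *syt2a* read 6.56, 6.52 and 6.88 in morphants, 7.47, 7.85 and 7.75 in mutants and 7.02 to 7.18 in wildtype. Inhibitory genes (*slc6a5* -0.91, *slc32a1* -0.84, *gad1a* -0.68, *gad2* -0.63) and excitatory genes (*slc17a6b* -0.76, *slc17a6a* -0.72, *gria2a* -0.85) fell. The mean centred signal of the list was 0.40 and 0.28 in mutant replicates 2 and 3, 0.04 in mutant replicate 1 and -0.23 to -0.08 in morphants. Mutants were above every wildtype array for 31 of the 80 genes (against 7.9% of all genes), and morphants were below for 11 (against 11.9%). Of 84 voltage-gated channel genes, 15 fell (17.9%, against 9.63% of all genes) and 2 rose. The 1 DE member was *cacnb3b* (-1.04), a share of 1.19% against 1.15% of all genes. Mutants were above every wildtype array for 19 of the 84 (against 7.9% of all genes). Of the 54 genes of neurogenesis and Notch signalling, 22 rose, 4 fell and 8 were DE. The Hairy-related repressors *her2* (1.80), *her4.5* (1.72), *her3* (1.37) and *her9* (1.07) and the proneural factors *ascl1a* (1.52) and *atoh1b* (1.43) were higher. The neuronal differentiation factors *neurod6b* (-1.54) and *neurod1* (-1.12) were lower. *ascl1a* read 8.73, 8.67 and 8.59 in morphants, 7.36, 7.06 and 7.0 in mutants and 7.64 to 8.06 in wildtype, so both groups were outside the wildtype range. For *her4.5* (7.23 to 7.38 in morphants, 4.98 to 6.42 in mutants, 6.84 to 7.57 in wildtype) the mutants alone were apart. Mutants were below every wildtype array for 16 of the 54 genes (against 8.93% of all genes), and morphants above for 11 (against 16.2%). *her4.5* belongs to a cluster of near-identical copies, so its signal may include theirs.

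Proliferation genes had mostly positive differences, but few passed. Of 48 DNA replication genes, 41 had a positive difference (median 0.29), with 5 that rose (10.4%, against 13.5% of all genes), 1 that fell and 0 DE. Both groups were below their own wildtype, with list medians of -0.15 for morphants minus uninjected embryos and -0.27 for mutants minus siblings. Of 44 mitosis and kinetochore genes, 33 were positive (median 0.18), with 7 that rose and 1 that fell. Mutants were below every wildtype array for 32 of the 44 genes of the mitosis list (against 8.93% of all genes) and morphants below for 20 (against 11.9%). The mean centred signal of that list was -0.38 and -0.28 in mutant replicates 2 and 3 but -0.02 in mutant replicate 1, and -0.11 to 0.05 in morphants against 0.07 to 0.32 in wildtype. Mutant replicate 1 was thus within the range of the morphants here.

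Lens crystallins, the structural proteins of the lens fibre, fell in 26 of 49 members and rose in 0, with a median of -0.53 and 14 DE (28.6%). *crygm2d15* read 6.46, 6.24 and 6.96 in morphants, 8.87, 9.97 and 9.34 in mutants and 7.56 to 8.92 in wildtype (-2.84, SE 0.375, adjusted p = 0.00152). *cryaa*, the alpha-crystallin chaperone, read 4.54, 4.17 and 5.0 against 6.59, 6.88 and 7.18 (-2.31, adjusted p = 0.000947). *crygm2d17* (-1.72) and *crygmxl1* (-1.60) were lower too, and the adjusted p of *crygm2d17* was 0.05 or above without morphant replicate 2 or mutant replicate 2 (up to 0.0527). Crystallins of the gamma-M family are near-identical copies, so their probe sets may share transcripts. Morphants were below every wildtype array for 21 of the 49 (against 11.9% of all genes) and mutants above for 13 (against 7.9%).

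Lens fibre and regulator genes had the highest DE share in this direction, 10 of 30 (33.3%). *lim2.5*, a lens fibre membrane protein, read 5.83, 4.96 and 6.02 in morphants, 8.15, 8.63 and 8.27 in mutants and 6.79 to 7.55 in wildtype (-2.74, SE 0.278, adjusted p = 0.00046). The lengsin gene *lgsn* (-2.34), the beaded filament genes *bfsp2* (-1.58) and *bfsp1* (-1.52), the fibre regulator *hsf4* (-1.47), the galectin-related *grifin* (-1.46) and the aquaporin *mipb* (-1.41) followed. The other lens aquaporin, *mipa*, had a difference of -0.14 (adjusted p = 0.544), and *lim2.1* one of 0.02 (adjusted p = 0.937), so these fibre genes did not pass.

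Photoreceptor genes fell in 17 of 65 members and rose in 0, with 8 DE. The transcription factors *otx5* (-2.64), *crx* (-2.44), *six7* (-2.16) and *nr2e3* (-1.60), which specify photoreceptors, led the list with the transducin subunit *gnb3a* (-2.57), the phosphodiesterase subunit *pde6gb* (-1.93), recoverin *rcvrna* (-1.80) and arrestin *sagb* (-1.17). *crx* read 6.64, 6.70 and 7.60 in morphants, 8.76, 9.80 and 9.70 in mutants and 7.71 to 8.89 in wildtype. *gnb3a* read 5.44, 5.56 and 5.66 in morphants and 6.62, 9.05 and 8.71 in mutants, and its adjusted p was 0.05 without mutant replicate 3. The rod transducin *gnat1* fell by 0.72, and the cone transducin *gnat2* had a difference of 0.06 (adjusted p = 0.806). Among 27 genes of retinal progenitors and interneurons, the bipolar cell factor *vsx1* was lower (-2.31) and the progenitor factor *rx1* was higher (1.02), and *rx2* (0.60) and *six3b* (0.51) also rose.

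The mutant pools differed among themselves in many of the lower genes. Of the 35 lower DE genes with a standard deviation above 0.5 between mutants, mutant replicate 1 was lowest in 32 and replicate 2 highest in 30. Uninjected wildtype replicate 2 was the wildtype array nearest the morphants for *crx*, *vsx1*, *six7*, *lim2.5* and *lgsn*. Without morphant replicate 2 and mutant replicate 1 together, 10 crystallins, 10 lens fibre and 12 photoreceptor genes were DE. Under the 2-group test of the methods the counts were 4, 2 and 2.

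**Figure D4:**
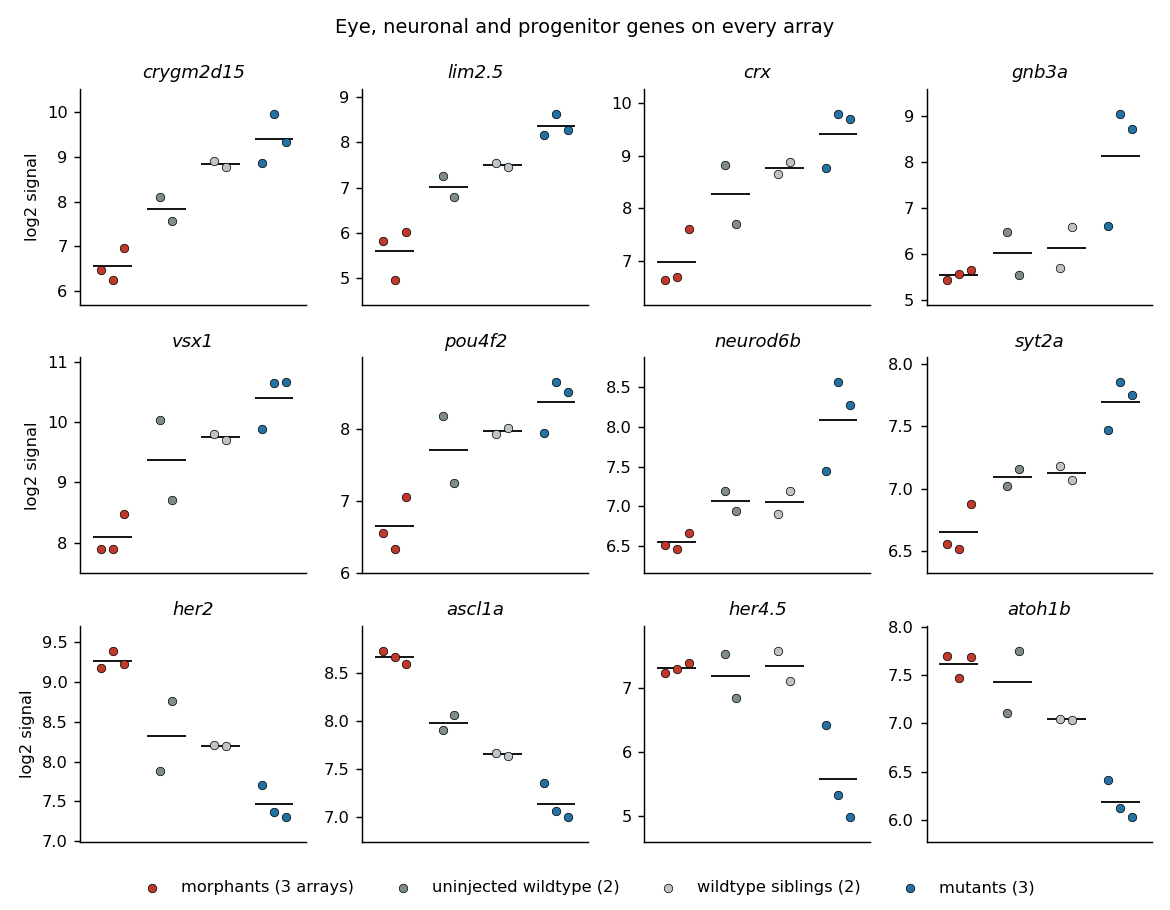
Log2 signal (vertical axis) of 12 eye, neuronal and progenitor genes on every array, 1 point per array and a line at each group mean. In the first 8 panels the mean of morphants is lowest and that of mutants highest (*crygm2d15* 6.24 to 6.96 against 8.87 to 9.97), and in the last 4 the mutants are lowest (*her4.5* 4.98 to 6.42).

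Protocadherins, the clustered adhesion proteins of neurons, fell in 16 of 47 members, rose in 5 and had 6 DE, all lower. *pcdh2ab7* read 4.53, 4.08 and 4.39 in morphants, 6.14, 6.4 and 6.34 in mutants and 5.03 to 5.76 in wildtype (-1.96, adjusted p = 0.000596). *pcdhb* read 5.35 to 6.08 in morphants and 8.22 to 8.70 in mutants, but also 5.57 and 5.92 in uninjected and 7.50 and 8.12 in sibling wildtype. Its direct difference was -2.84 and its wildtype difference -2.07, and its uninjected arrays lay with the morphants and its siblings near the mutants. *pcdh2ab3* (-1.58) and the non-clustered *pcdh8* (-1.73) were DE on 1 of their probe sets, and the adjusted p of *pcdh8* was above 0.05 without morphant replicate 1 or 2 or mutant replicate 2 or 3 (up to 0.0729). Isoforms of the clusters share exons and sequence, so single members are uncertain. Clock genes fell in 9 of 49 (18.4%, against 9.63% of all genes) and rose in 2 (4.08%, against 13.5%). The DE members were the nuclear receptors *roraa* (-1.45) and *rorb* (-1.28), the second also a retinal gene, and *nfil3-6* (-1.23).

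Liver and yolk plasma genes fell in 8 of 42 members, rose in 4 and had 5 DE, the apolipoproteins *apoa4b.2* (-2.29), *apoea* (-1.52) and *apoa4a* (-1.38), *hpda* (-1.83) and *uox* (-1.12) of tyrosine and urate breakdown. Another member had the lowest difference of the list (-2.74) but was not DE. *apoa4b.2* read 7.19, 6.63 and 5.85 in morphants, 9.0, 8.80 and 8.73 in mutants and 7.99 to 9.02 in wildtype, and the abundant *apobb.1* had a difference of -0.02 (adjusted p = 0.905). The adjusted p of *hpda* was above 0.05 without mutant replicate 2 or 3 (up to 0.0679). In red cells, *alas2*, the first enzyme of heme synthesis, was lower (9.37, 9.50 and 9.04 against 10.45, 10.70 and 10.78, a difference of -1.34) and the embryonic globin *hbbe3* was higher by 1.09, while *hbae3* fell by 0.54 and *gata1a* had a difference of 0.39 (adjusted p = 0.0846). The adjusted p of *hbbe3* was above 0.05 without morphant replicate 1 or 2 or mutant replicate 2 or 3 (up to 0.0958). The hatching enzymes *he1.2* (1.5) and *he1.1* (1.18) and the protease *ctslb* (1.29) were higher, but *he1.2* also ranged from 5.93 to 7.16 in wildtype, and *ctslb* reached an adjusted p of 0.0589 without single arrays (morphant replicate 2 or mutant replicate 2). On the hatching gland list 0 genes were DE without morphant replicate 2 and mutant replicate 1 together. The skin ammonia channel *rhcga* was 6.82-fold higher (7.76, 6.48 and 7.83 against 5.25, 4.08 and 4.42), and *atp1a1a.5* (1.33) of ionocytes was DE with it. Of 75 cytochrome P450 genes, *cyp2aa8* (1.90), *cyp2aa9* (1.49), the retinoic acid hydroxylase *cyp26c1* (1.3) and *cyp2y3* (1.29) were higher and *cyp4v2a* (-1.29) was lower, the last with an adjusted p above 0.05 (up to 0.106) without any 1 of the morphant arrays or mutant replicate 2 or 3. The Nrf2 factor *nfe2l2b* (1.58) and the carbonyl reductase *cbr1l* (1.67) were DE among 43 detoxification genes. Collagens fell in 8 of 48 (16.7%, against 9.63% of all genes) and rose in 4 (8.33%, against 13.5%). The DE member was *col10a1a* (-1.95), whose adjusted p was above 0.05 without morphant replicate 1 or mutant replicate 2 (up to 0.0553).

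**Figure D5:**
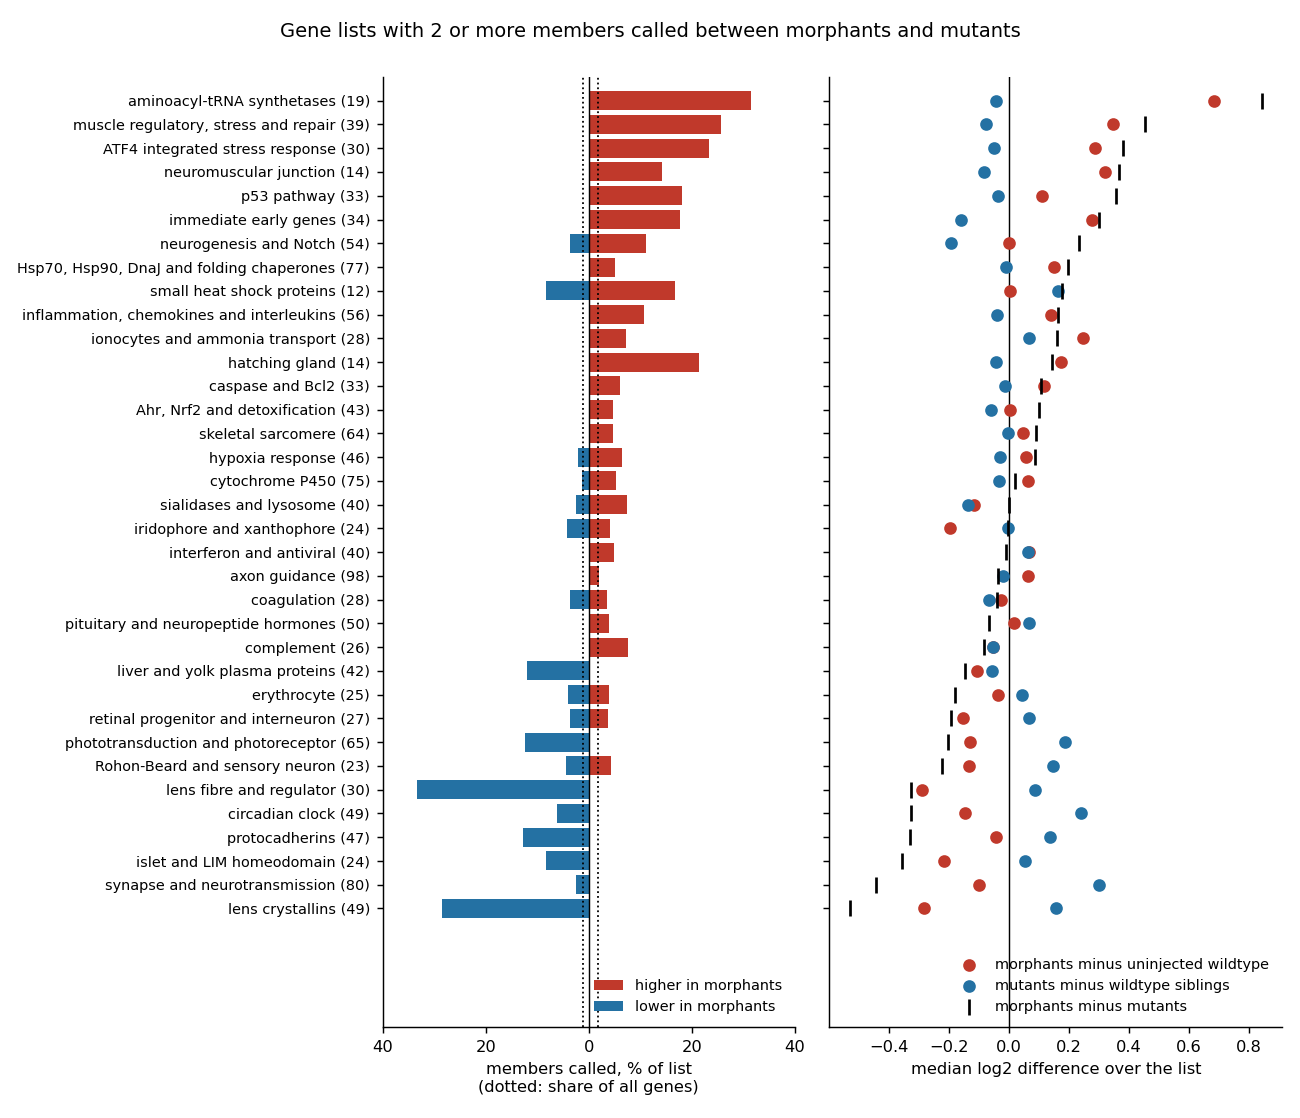
Gene lists with at least 2 DE members, with the number of genes measured in brackets. The left panel gives DE members as a percentage of each list (red higher, blue lower, dotted lines at 1.83% and 1.15% of all genes), and the right panel gives the list median of log2 differences for morphants minus uninjected wildtype, mutants minus wildtype siblings and morphants minus mutants; aminoacyl-tRNA synthetases are at the top with 31.6%, and crystallins (28.6%) are at the bottom.

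Nothing was DE among Hox, exocrine pancreas, melanophore, endothelial, glial, cartilage and notochord, nonsense-mediated decay and respiratory chain genes. With 1.83% of all genes DE and higher and 1.15% DE and lower, short lists can hold 0 without standing apart. Without single arrays the count reached 2 for glial genes, and 1 each for endothelial and respiratory chain genes. Only 3 of 17 exocrine pancreas genes had a mean signal above that of the median probe set. Of 92 respiratory chain genes, 25 rose (27.2%, against 13.5% of all genes) and 3 fell (median 0.21). Of 19 decay factors, 5 rose (26.3%), among them *smg1* (0.70) and *upf1* (0.42), and 1 fell. Morphants were above every wildtype array for 35 of the 92 and 9 of the 19 (against 16.2% of all genes). As a check of the tissue, 53 marker genes were measured, of which 7 rose, 10 fell and 36 did not pass. Of these markers 8 were DE, those of blood (*alas2*, *hbbe3*), lens (*cryaa*, *crygm2d1*), photoreceptors (*rcvrna*) and hatching gland (*he1.1*, *he1.2*, *ctslb*). The skin keratin *krt4* read 12.79 to 12.94 and the neuronal *elavl3* 10.54 to 11.65, with its lowest value in morphant replicate 2, and the exocrine pancreas gene *prss1* (4.1 to 4.55) lay below every array median.

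*si:dkey-40h20.1*, which has no described function here, read 6.29, 6.09 and 6.4 in morphants and 3.02, 2.90 and 2.89 in mutants on one probe set (3.32, SE 0.0983, adjusted p = 7.07e-07), and 4 probe sets of it were higher by 2.95 to 4.23. *si:dkey-204l11.1* was 7.42-fold higher (7.82, 8.06 and 7.88 against 5.01, 4.95 and 5.13). *arhgef1* read 9.25, 9.40 and 9.26 against 7.67, 7.63 and 7.68 (1.64, SE 0.0906), *arpp21*, a cAMP-regulated phosphoprotein, differed by 2.18, and the proteoglycan *optc* (opticin) by 2.87. In each of these the mutants overlapped the wildtype arrays. On the lower side, *zgc:194221* read 4.97, 4.92 and 4.94 in morphants, 6.41, 6.42 and 6.56 in mutants and 5.14 to 5.26 in wildtype (-1.52, SE 0.0808, adjusted p = 1.62e-05), and *LOC100329398* was lower by 2.89, with mutants at 6.85 to 7.32 and all other arrays at 3.69 to 4.62. The epithelial factor *grhl2b* (-1.09 on one probe set, 0.28 with adjusted p = 0.172 on another), *zbtb12.1* (-1.15), the amino acid transporter *slc38a8a* (-1.21), the AMP deaminase *ampd1* (-2.04) and the complexin *cplx2b* (-1.17) were also among the 10 smallest p-values of this direction. For *ampd1* the mutants (9.57 to 10.01) overlapped the wildtype arrays (8.87 to 9.66) and the morphants (7.67 to 7.85) were apart.

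Further down the ranking by size, *leap2*, an antimicrobial peptide of liver, was 5.37-fold lower (5.35, 4.22 and 4.99 against 7.99, 6.78 and 7.07), yet its wildtypes ran the other way, with 7.21 and 6.84 in uninjected and 5.38 and 5.22 in sibling embryos. Its adjusted p was above 0.05 without morphant replicate 2 or mutant replicate 1 (up to 0.063). *ggact.3* (-3.05) was high in mutants (6.19, 5.90 and 6.45), at 2.93 to 3.28 in morphants and at 3.02 to 4.95 in wildtype. *ly6pge* (-2.32) and *zgc:112285* (-2.80) were also lower. *si:ch73-56d11.5* had the largest difference of the named genes, with 7.45, 6.62 and 7.64 against 2.96, 2.82 and 3.02 (4.3, SE 0.322, adjusted p = 0.000103), and *LOC100537178* (2.94) and *si:ch211-57n23.4* (3.08) were among the largest 15. In *si:ch211-57n23.4* the mutants (8.40, 6.92 and 7.32) were below all wildtype arrays (8.94 to 10.32). *si:ch211-155m12.1* (-2.65) split the wildtype arrays within each pair, at 4.48 and 6.46 and at 6.76 and 4.44, and its adjusted p was above 0.05 without morphant replicate 1 or 3 or mutant replicate 3 (up to 0.063).

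Of the genes with a DE probe set, 10 were picked for a large wildtype difference of the same sign. *si:rp71-77l1.1* read 5.97 to 6.41 in morphants and 5.67 and 6.30 in uninjected wildtype, but 8.11 to 8.52 in mutants and 7.31 and 8.45 in their siblings, so the direct difference (-2.05) was close to the wildtype one (-1.90). *kcnk5a*, a potassium channel, had 1.19 and 1.1, and *zgc:174696* had 1.06 and 0.96. *tubb4bl*, a tubulin, had -2.42 on the probe set that was DE between the wildtypes too (-1.88, adjusted p = 0.0353) and -0.99 on its brighter one. *neu3.2*, a sialidase, had -2.89 and -1.43, *mprip* -2.25 and -1.46 on its dimmer probe set (with a direct difference of 0.10, adjusted p = 0.764, on its brighter one), *emc7a* 1.36 and 0.89, *caspb* 1.69 and 0.77 on its brighter probe set, and *wu:fa03e10* 2.73 and 1.27. Without any 1 morphant or mutant array the adjusted p of the direct difference was above 0.05 for *kcnk5a*, *zgc:174696* and *si:rp71-77l1.1* (up to 0.14). It was also above 0.05 for *mprip* without morphant replicate 1 or 2 or mutant replicate 1 or 2 (up to 0.0829), and for *emc7a* without morphant replicate 2 or mutant replicate 3 (up to 0.0595).

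Probe sets without a gene symbol held the largest differences of all. Probe set 13291426 read 8.22, 8.08 and 8.44 in morphants, 2.60, 2.47 and 2.46 in mutants, 7.46 and 8.02 in uninjected wildtype and 2.21 and 2.31 in siblings, so each group lay with its own wildtype. Probe set 13302028 was high in mutants alone (8.28 to 8.38, with 3.45 to 4.28 on all other arrays), 13297540 was low in mutants alone (3.27 to 3.65 against 7.36 to 8.49), and 13204090 was high in morphants alone (6.58 to 7.66 against 2.60 to 3.64). These 4 were chosen after their values were seen, and the annotation used here gave them no gene.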

How the data were processed

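RNA of pooled whole embryos was labelled with a WT PLUS kit and hybridized to GeneChip Zebrafish Gene 1.0 ST arrays, 1 sample per array. The deposited values are log2 signals that the authors made by robust multi-array averaging (background correction, quantile normalization and summary per probe set); the oligo package is given for this in the methods, while the submitters' processing notes name GCRMA, with versions not given in the sources used here. These log2 values were used as deposited for all 75212 probe sets (0 columns of other samples), and the number of arrays limits their precision. Quantile normalization equalizes the arrays before the summary per probe set, so a shift shared by all genes could not be seen. The deposited values were not exactly equal in distribution, with array medians of 4.92 to 4.96, and repeating the normalization on them moved some values. A gene name was used only for the 20806 probe sets with 1 symbol (855 had several, 53551 none), updated through the gene identifier where the RefSeq table of GRCz12tu held it (20323).

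limma 3.58.1 in R 4.3.3 (lmFit, eBayes, two-sided, prior degrees of freedom 3.13) fitted 3 group means, with both wildtypes joined as in the study, and 4 group means for the wildtype difference and the difference of changes. On simulated data, 91 of 100 probe sets with a log2 change of 1.5 and 97 of 100 with 2.5 were recovered, and 5 unchanged probe sets were called. The simulation used independent normal noise without a wildtype difference or arrays that stand apart, so it does not cover those features of the data. Named were the islet and other genes of the study, the 15 largest differences and 10 smallest p-values in each direction among genes differentially expressed (adjusted p below 0.05 and 2-fold) with groups that did not overlap, up to 4 DE members per list and direction, defining markers, and 5 genes in each direction with the largest wildtype difference of the same sign; other members are given for completeness of their list. Members, the 58 lists and tests were chosen with earlier results of these data known. Alternatives were the methods' 2-group test, limma on 2 groups or 4 group means, repeated quantile normalization, median centring, a dim filter, 1-symbol probe sets, a trended prior, array weights, a test against 2-fold (treat), the replicate number as a block and each array left out; identical probe sets counted once, and 2 arrays left out together, were added after the data were seen. Tables and figures were made with Python 3.11.15, numpy 2.4.6, pandas 2.3.3 and matplotlib 3.10.9. Sequences were not analysed here.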

Additional observations from a re-analysis of the deposited data

Results flagged for a closer look

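The difference of changes, morphants from uninjected wildtype minus mutants from wildtype siblings, was tested in the 4-group limma fit, and its adjusted p was below 0.05 for 49 of the 148 probe sets of named genes (0.000263 to 0.0487), with 36 positive and 13 negative. Over all 75212 probe sets, 583 had an adjusted p below 0.05 in this test. The difference of changes is given here on the log2 scale. Positive values were, for stress and translation genes, 2.88 for *atf5b*, 2.12 for *ddit3*, 1.41 for *atf3*, 1.18 for *cebpg*, 1.72 for *iars1*, 1.11 for *yars1* and 1.05 for *rars1*. Among p53 and cell death genes they were 2.36 for *rps27l*, 2.00 for *mdm2*, 1.99 for *cdkn1a*, 1.35 for *gadd45ab* and 1.42 for *casp8*. For injury and immune genes the values were 2.09 for *junbb*, 1.75 for *fosl2*, 2.24 for *irf7*, 1.78 for *isg20*, 1.32 for *il6st*, 1.25 for *c7a*, 1.81 for *igfbp1a* and 1.32 for *loxl2a*. Muscle and junction genes had 3.26 (*chrng*), 1.16 (*musk*) and 1.04 (*desma*). The others were 0.87 for *isl2a*, 1.2 for *ascl1a*, 2.77 for *cyp2aa8*, 1.5 for *cyp2aa9*, 1.97 for *nfe2l2b*, 2.69 for *optc*, 1.81 for *arhgef1*, 2.28 for *arpp21*, 3.46 for *LOC100537178*, 3.77 for *si:ch73-56d11.5*, 2.97 for *si:dkey-204l11.1* and 3.4 and 4.61 for 2 probe sets of *si:dkey-40h20.1*.

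Negative values were -4.15 for *leap2*, -3.42 for *LOC100329398*, -2.26 for *lim2.5*, -2.24 for *ampd1*, -1.84 for *apoa4a*, -1.60 for *grifin*, -1.55 for *zgc:194221*, -1.46 for *ednrba*, -1.29 for *pcdh2ab7*, -1.25 for *cplx2b*, -1.19 for *slc38a8a*, -1.06 for *zbtb12.1* and -1.03 for *grhl2b*. Nearly all of these genes were named for their direct difference, which uses the same morphant and mutant arrays. The share of named probe sets that passed, and their signs, therefore follow largely from that choice.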

How the results depend on the processing

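Of 144 named genes other than the islet genes, 141 passed. All but *nrp1a*, *plxna3* and *eef1a1a* were named because they were DE on these arrays, so this count was set by the choice. None reversed under the alternatives run, all of them on these same arrays. Leaving out arrays cannot reverse a gene whose groups do not overlap, and several alternatives leave the difference itself unchanged. The absence of reversals was thus largely set by the choice too. DE genes given only for completeness of their list, such as *tars1*, *lars1b*, *phlda3* and *bbc3*, are not among the 144. The counts of lost calls do not cover them. The call was lost for 19 of the 144 without at least 1 array, 76 by the methods' 2-group test and 127 when tested against 2-fold. It was lost for 21 without morphant replicate 2 and mutant replicate 1 together. The 76 include *ankrd1a*, *hspb9*, *lepa*, *pth1a*, *ngfrb* and *rhcga*. By the 2-group test 5 muscle stress, 2 inflammation, 1 folding chaperone and 5 neurogenesis genes were DE. So were 3 protocadherins, 2 liver and yolk genes and 0 synapse, islet and LIM, or hatching gland genes. The 1894 DE probe sets between morphants and mutants became 10235 without the fold threshold, 748 by the methods' 2-group test, 637 among probe sets with 1 symbol and 50 when tested against 2-fold, and 1495 to 2082 without single arrays. The 24 between the wildtypes became 0 by the methods' test, 0 with limma on those groups alone, 10 with 1 symbol, 8 with array weights and 38 with identical probe sets once. Without single arrays they ran from 5 to 110, with 11 (uninjected replicate 1), 5 (uninjected 2), 11 (morphant 1), 37 (morphant 3), 110 (sibling 1), 12 (mutant 1) and 8 (mutant 3). The 447 with a difference of changes became 713 with a filter on dim probe sets, 103 without morphant replicate 2 and mutant replicate 1 together, and 131 to 426 without single arrays: 131 (uninjected 1), 170 (morphant 1), 293 (morphant 2), 208 (morphant 3), 214 (sibling 1), 232 (sibling 2), 198 (mutant 2) and 164 (mutant 3). The cause was not tested.

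*isl1a* (-0.80) missed the threshold by the methods' test (adjusted p = 0.0906), as did *isl2b* (-0.69, adjusted p = 0.152), and *isl1a*, *isl2b* and *isl2a* (0.82) missed it when limma tested against 2-fold (adjusted p = 1.0). Without single arrays *isl1a* ran from -0.93 to -0.72, *isl2a* from 0.76 to 0.87 and *isl1b* from -0.068 to 0.101. *isl2b* ran from -0.882 to -0.574 and was -0.61 without morphant replicate 1, -0.73 without morphant replicate 2, -0.574 without mutant replicate 2 and -0.62 without mutant replicate 3. *isl1b* (0.01) changed sign with array weights (-0.019), without both arrays (-0.062), without morphant replicate 2 (-0.068) and without mutant replicate 3 (-0.031).

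The replicate numbers did not pair the samples (r of deviations 0.03, -0.10 and -0.01 for same-numbered arrays). With the replicate number as a block, 1789 probe sets were DE between morphants and mutants and 147 in the difference of changes, and 5 named genes lost the call. The wildtype difference rests on 2 arrays in each group.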
